A study of Mus musculus with 27 samples.

Results

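Fibroblast growth factors (FGFs) and their receptors were followed across mouse back skin and cultured hair follicle stem cells (HFSCs). The genes were chosen by symbol, as 6 ligands (Fgf5, Fgf7, Fgf10, Fgf11, Fgf18 and Fgf22) and 3 receptors (Fgfr1, Fgfr2 and Fgfr3). These 9 genes were found among 51906 gene symbols of the RNA-seq table and among 32285 genes of the single-cell skin matrices. The symbols alone define the group, which was drawn up with earlier results of these data known. The series compared HFSCs kept in serum with HFSCs kept in a medium that holds all-trans-retinoic acid (atRA), the active form of vitamin A, and an inhibitor of protein kinase C (PKCi, the compound Go6976). Of the 27 samples, 8 RNA-seq libraries, 2 single-cell libraries of skin and 2 single-cell libraries of multiplexed cultures were used here.

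The RNA-seq libraries were made from HFSC lines of telogen (P55) back skin, from 2 wild-type mice and 2 Rxra cKO mice. The cKO mice carried Sox9-CreER, Rxra fl/fl and R26-YFP. CreER is a Cre induced by tamoxifen, here driven by the Sox9 promoter, and acts on the gene of retinoid X receptor alpha. The paper describes tamoxifen for CreER lineage tracing and does not state when these lines received it. It lists the CreER and YFP alleles for the cKO line and not for wild-type. These alleles and the loss of Rxra thus cannot be told apart between genotypes. Each line was grown as 3D colonies either in serum medium (FBS) or in atRA+PKCi medium, which gave 4 groups of 2 libraries. The atRA+PKCi medium also replaced serum with the supplement B-27, so serum withdrawal and the added compounds cannot be told apart. Lines had been started on inactivated feeder cells, and colonies were first grown with EGF or FGF10 protein in the medium. Which culture received which factor is not given in the sources used here. The skin libraries came from 2 wild-type mice at P32, in the sixth stage of anagen, the growth phase of the hair cycle. The cultured single cells were wild-type HFSCs of the same stage, tagged by culture condition and pooled per mouse.

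FGFs are secreted or intracellular signals. Secreted FGFs bind receptor tyrosine kinases with the help of heparan sulfate, and the activated receptors signal through adaptor proteins to the ERK kinases, which in turn induce their own inhibitors. In skin, FGF7 and FGF10 are made by the dermis and act on epithelial cells through the IIIb form of FGFR2. FGF5 is known as a signal that ends hair growth, and FGF18 as a signal of the resting follicle that holds HFSCs in quiescence. FGF11 belongs to the intracellular subfamily, which is not secreted, and FGF22 is an epithelial relative of FGF7 and FGF10. All values are per gene, so the IIIb and IIIc forms of a receptor are summed.

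The RNA-seq libraries held 25150265 to 35879777 estimated counts, and replicate libraries had correlations of log2 CPM (counts per library scaled to a common total) of 0.984 to 0.989. Of the 6 outer root sheath markers, Krt5 was at 8960 to 12300 CPM, Sox9 at 70.1 to 173 and Barx2 at 12.4 to 103, whereas Lgr5 did not exceed 0.186 CPM. Krt14 was at 20500 to 22300 CPM in wild-type FBS but 5720 to 5970 in its atRA+PKCi libraries and 11600 to 13400 in the cKO libraries, and Krt17 was at 48.3 to 95.2 CPM in wild-type against 1460 to 1980 in Rxra cKO. The targeted gene Rxra was at 149 and 122 CPM in wild-type FBS, 147 and 143 with atRA+PKCi in wild-type, 97.2 and 95.7 in Rxra cKO FBS and 148 and 145 in Rxra cKO atRA+PKCi. The edgeR quasi-likelihood test gave a log2 fold change of -0.49 for cKO against wild-type in FBS (adjusted p = 0.00264) and 0.01 in atRA+PKCi (adjusted p = 0.927). A gene-level count includes the exons that remain after Cre, so it does not check the deletion. The skin matrices held 16521 and 16068 barcodes, of which 14458 and 13915 passed the cell filters and 62 barcode sequences occurred in both libraries. The sort was described as negative for CD45, CD31, CD140a and CD117, yet 39.4% and 38.2% of the cells used lay in Fibroblast-like clusters, and Immune-like and Endothelium-like clusters were also present.

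Promoter sequence is shown for 4 members, since Fgf18 and Fgfr3 were the members called for a difference between genotypes in the change with medium and Fgf7 and Fgfr2 were the members whose windows held a retinoid half-site. The windows run from 250 bases before to 50 bases after the start given by RefSeq on GRCm38.p6, and 8 of the 9 members had such an entry. Capitals mark any match, on either strand, to the GC box GGGCGG, to the half-site AGGTCA or AGTTCA that retinoid receptors can bind, or to the TATA box TATAAA. Windows are chr11:33147351-33147650 on the minus strand for Fgf18, chr5:33721474-33721773 on the plus strand for Fgfr3, chr2:126034408-126034707 on the plus strand for Fgf7 and chr7:130266759-130267058 on the minus strand for Fgfr2, each written 5′ to 3′ along the gene.
Fgf18: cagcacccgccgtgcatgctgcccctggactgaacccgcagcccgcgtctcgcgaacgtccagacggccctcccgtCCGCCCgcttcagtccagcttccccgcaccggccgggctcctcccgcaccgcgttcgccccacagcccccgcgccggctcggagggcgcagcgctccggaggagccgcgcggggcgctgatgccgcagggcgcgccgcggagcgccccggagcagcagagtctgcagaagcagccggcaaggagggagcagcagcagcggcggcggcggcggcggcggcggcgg
Fgfr3: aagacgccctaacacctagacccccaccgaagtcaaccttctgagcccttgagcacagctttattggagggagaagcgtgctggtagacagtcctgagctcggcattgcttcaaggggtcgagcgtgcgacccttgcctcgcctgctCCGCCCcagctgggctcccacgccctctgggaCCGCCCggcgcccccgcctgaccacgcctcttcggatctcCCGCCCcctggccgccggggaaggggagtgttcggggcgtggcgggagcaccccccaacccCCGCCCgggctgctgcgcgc
Fgf7: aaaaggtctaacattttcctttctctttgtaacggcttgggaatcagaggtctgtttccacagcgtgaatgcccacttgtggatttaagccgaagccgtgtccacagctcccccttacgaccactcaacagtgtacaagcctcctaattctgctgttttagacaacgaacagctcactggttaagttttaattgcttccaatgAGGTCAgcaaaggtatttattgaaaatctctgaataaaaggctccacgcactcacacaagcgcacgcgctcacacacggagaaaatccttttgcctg
Fgfr2: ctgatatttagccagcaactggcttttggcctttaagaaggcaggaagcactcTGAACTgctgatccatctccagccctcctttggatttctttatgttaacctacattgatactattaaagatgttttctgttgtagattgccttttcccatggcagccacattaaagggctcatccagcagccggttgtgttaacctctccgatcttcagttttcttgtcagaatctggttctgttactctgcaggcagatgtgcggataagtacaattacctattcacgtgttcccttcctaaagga

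The windows differed most in base composition. GC content was 78.7% for Fgf18 and 69.7% for Fgfr3, but 45.7% for Fgf7 and 43.7% for Fgfr2, against a median of 52.7% over 32851 promoters. The Fgfr3 window held 4 GC boxes and the Fgf18 window held 1, and a second RefSeq window of Fgfr3, at chr5:33722056-33722355, held 2 at 73.0% GC. Of all promoters, 35.7% held at least 1. The Fgf7 and Fgfr2 windows held 1 half-site each, as did 27.7% of all promoters at least once. Fgf5 was the only member with a TATA box, which 13.6% of all promoters held. A match is a description of the letters and not a site.

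In skin, cells of both mice were clustered without the member genes into 31 clusters, which formed 22 groups, 13 named from marker lists and 9 known only by their leading genes. Unique molecular identifiers (UMIs) were summed per mouse and group and scaled to CPM. With 2 mice, an exact permutation test cannot reach 0.05, so levels are a description, given as mouse 1 then mouse 2. A neighbour in the order was called separate where both mice of the higher group lay above both mice of the next.

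The mesenchymal ligand Fgf7 (chr2:126034658-126091185, plus strand), known as keratinocyte growth factor, was at 1350 and 1657 CPM in Dermal papilla-like cells. The dermal papilla is the signalling cluster of mesenchyme at the base of the follicle. It was followed by 109 and 115 CPM in Fibroblast-like cells and 65.2 and 51.2 CPM in a cluster led by Adamts18, Col11a1 and Ednrb, and both upper groups were separate from their next neighbour. Dermal papilla-like cells were 3.36% and 3.74% of the cells and gave 31.8% and 40.8% of all Fgf7 UMIs. Fibroblast-like cells gave another 58.6% and 49.7%, and their 7 clusters ranged from 16.6 to 185 CPM. Epithelial groups formed the low end, with 4.59 and 5.12 CPM in Hair matrix-like cells.

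Fgf10 (chr13:118669791-118792115, plus strand), the other mesenchymal ligand of the FGFR2 IIIb form, was also highest in Dermal papilla-like cells, at 880 and 1063 CPM. The next group, led by Car3, Adam12 and Fabp4, had 573 and 757 CPM, and both were separate from the group after them. Fgf10 was itself among the leading genes of that cluster, although it had no part in the clustering. Fibroblast-like cells were at 47.7 and 87.8 CPM. By share of all Fgf10 UMIs the order was another, with 43% and 45.8% from the Car3/Adam12/Fabp4 cluster. Fibroblast-like cells gave 27.7% and 26.8% and Dermal papilla-like cells 22.4% and 18.4%. In Hair matrix-like cells the level was 5.01 and 10.7 CPM and Inner root sheath-like cells were as low. Mouse 2 had the higher level in each of the 4 groups with values given.

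Fgf5 (chr5:98254184-98277030, plus strand) had an epithelial maximum. A cluster led by Grm7, Slc39a10 and Lgr5, cycling in S phase by its genes, had 271 and 201 CPM and was separate from all other groups. It held 2.57% and 3.35% of the cells and 31.8% and 44.0% of the Fgf5 UMIs. Below it came a cluster led by hemoglobin genes (70.4 and 34.3 CPM), Outer root sheath-like cells (47.7 and 37.0 CPM) and Inner root sheath-like cells (39.7 and 25.1 CPM), which were not separate from each other. The hemoglobin cluster was cycling in G2/M phase by its genes, had Stmn1 and Mycl among its leading genes and a median of 2694 genes per cell. With doublets kept, a separate hemoglobin cluster of 195 cells had a median of 598 genes. Levels of the hemoglobin cluster are thus not those of blood cells alone. Within the outer root sheath, cluster 17, led by Edn2, had 65.6 and 49.0 CPM and cluster 18, led by Pthlh and Krt6a, had 16.2 and 14.0 CPM. With cells of at least 1000 genes and under 5% mitochondrial UMIs only, the clusters changed and the Outer root sheath-like mean was 99.6 CPM in place of 42.4. Hair shaft medulla-like cells were at the low end, with 2.63 and 1.33 CPM.

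Fgf18 (chr11:33117430-33147400, minus strand) was low but mainly mesenchymal. The Adamts18/Col11a1/Ednrb cluster had 25.2 and 18.3 CPM, Fibroblast-like cells 25.9 and 15.7 CPM and Dermal papilla-like cells 16.7 and 12.2 CPM, with overlap between neighbours. Fibroblast-like cells gave 88.5% and 85.0% of the Fgf18 UMIs. Among their clusters, the Pi16-rich cluster was highest, at 47.6 CPM in mouse 1 (1786 cells) and 36.03 CPM in mouse 2 (115 cells), and a cluster led by Smpd3 and Zfpm2 had 35.6 and 26.9 CPM, whereas a cluster led by St6galnac3 and Gramd1b had 0.698 and 0.961 CPM. Hair matrix-like cells were at 0.417 and 0.315 CPM. The quiescent bulge was not a group of its own here, so the level in resting stem cells is not given.

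The remaining ligands were near the detection floor in skin. Fgf11 (chr11:69796068-69801857, minus strand) was highest in a cluster led by the muscle genes Myog and Pax7 (9.33 and 12.2 CPM) and in Dermal papilla-like cells (8.37 and 12.7 CPM), which were not separate from each other. Fgf22 (chr10:79755076-79758596, plus strand) had 29 and 26 UMIs in all. Hair matrix-like cells held 8 of them in each mouse and Hair shaft medulla-like cells 2 and 4.

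**Figure D1:**
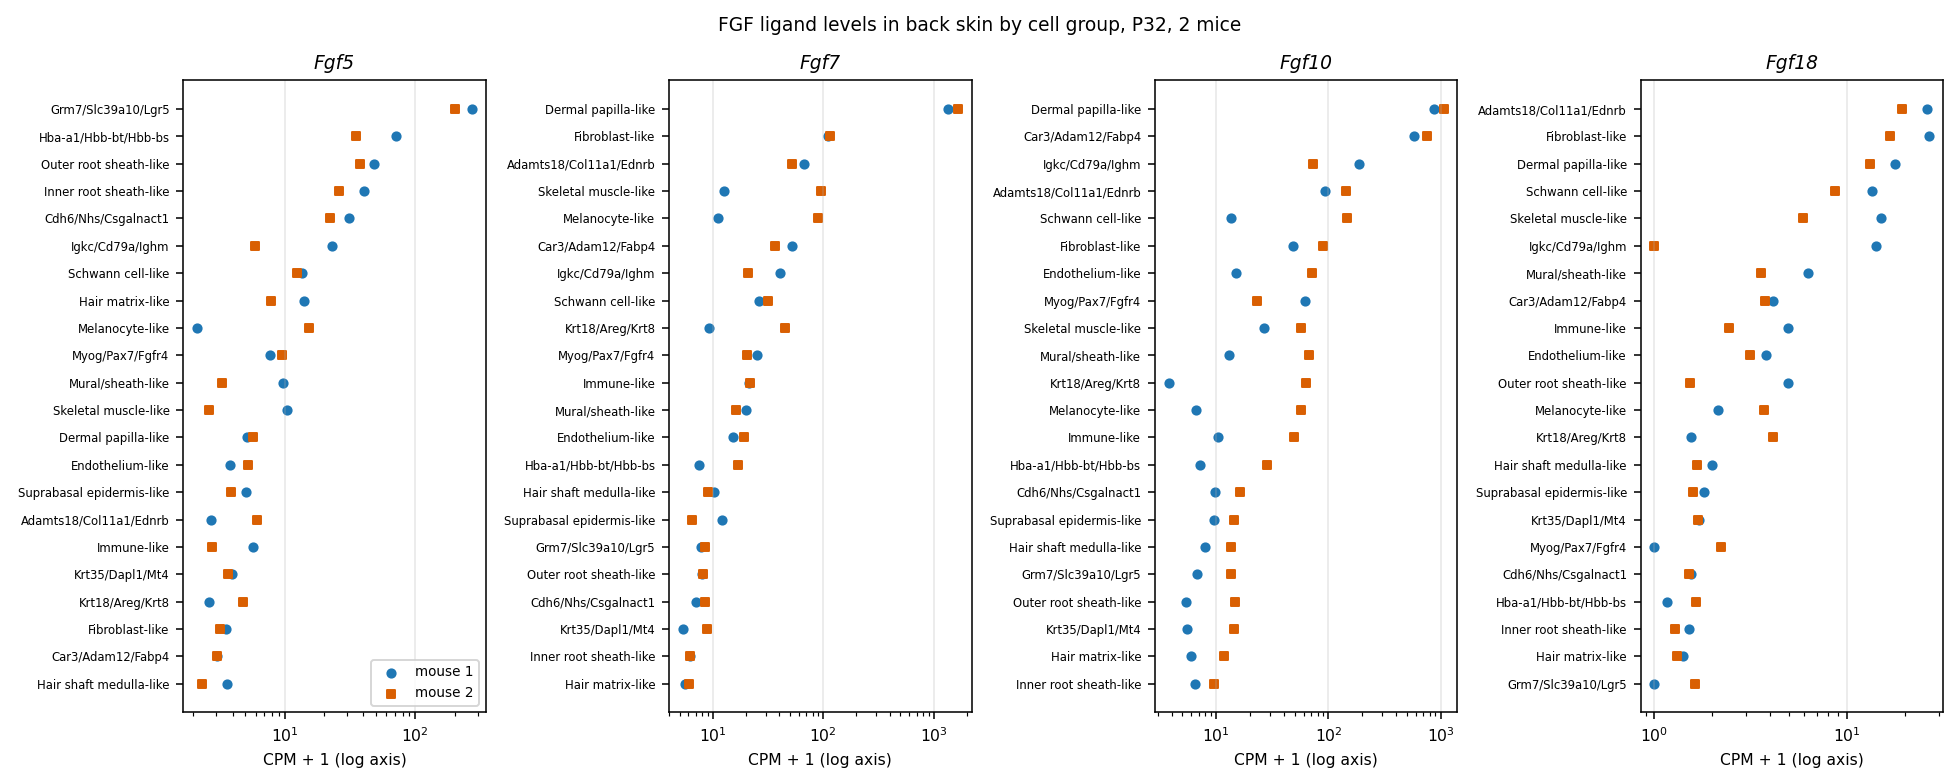
Levels of Fgf5, Fgf7, Fgf10 and Fgf18 in the 22 cell groups of P32 back skin, as CPM of summed cells plus 1 on a log axis, with 1 point per mouse and groups ordered by their mean. Fgf7 and Fgf10 were led by Dermal papilla-like cells, Fgf5 by the Grm7/Slc39a10/Lgr5 cluster, and Fgf18 by mesenchymal groups of up to 25.9 CPM.

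The receptors divided skin in another way. Fgfr1 (chr8:25513654-25575718, plus strand), the main mesenchymal receptor, was highest in Dermal papilla-like cells at 383 and 399 CPM. The Myog/Pax7 cluster followed with 229 and 333 CPM and Fibroblast-like cells with 183 and 173 CPM, and each of these 3 groups was separate from the next. Outer root sheath-like cells had 87.4 and 120 CPM. The lowest values were 12.5 and 23.3 CPM in Hair shaft medulla-like cells and 15.6 and 18.8 CPM in Inner root sheath-like cells, whose mean was 33.4 CPM with the stricter cell filter and 28.9 CPM at a clustering resolution of 0.5.

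Fgfr2 (chr7:130162451-133123350 in GENCODE, but ending at 130266808 in RefSeq, minus strand) was the most evenly spread member. In GENCODE, 314 of its exonic bases are shared with Ctbp2 on the same strand. The part of Ctbp2 in the Fgfr2 values was not tested. A cluster led by Cdh6, Nhs and Csgalnact1 was separate from the others with 635 and 657 CPM. The Krt35/Dapl1/Mt4 cluster (377 and 524 CPM), Dermal papilla-like cells (389 and 460 CPM) and Hair shaft medulla-like cells (365 and 454 CPM) followed and overlapped each other. Hair matrix-like cells were at 295 and 316 CPM. The lowest levels were 83.1 and 89.9 CPM in the Car3/Adam12/Fabp4 cluster and 84.0 and 91.1 CPM in Immune-like cells, so even the low groups were not at 0. Ambient RNA was not removed from these matrices, and its part in these low levels was not tested.

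Fgfr3 (chr5:33721674-33737068, plus strand) was epithelial. Outer root sheath-like cells had 89.9 and 121 CPM and the Grm7/Slc39a10/Lgr5 cluster 99.8 and 81.4 CPM, and these groups were not separate from each other. The Cdh6/Nhs/Csgalnact1 cluster (67.9 and 61.5 CPM), the hemoglobin cluster (54.7 and 50.9 CPM) and Inner root sheath-like cells (50.2 and 48.0 CPM) followed, each separate from the next. Fibroblast-like cells had 5.06 and 5.31 CPM and Hair shaft medulla-like cells 3.95 and 5.33 CPM.

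**Figure D2:**
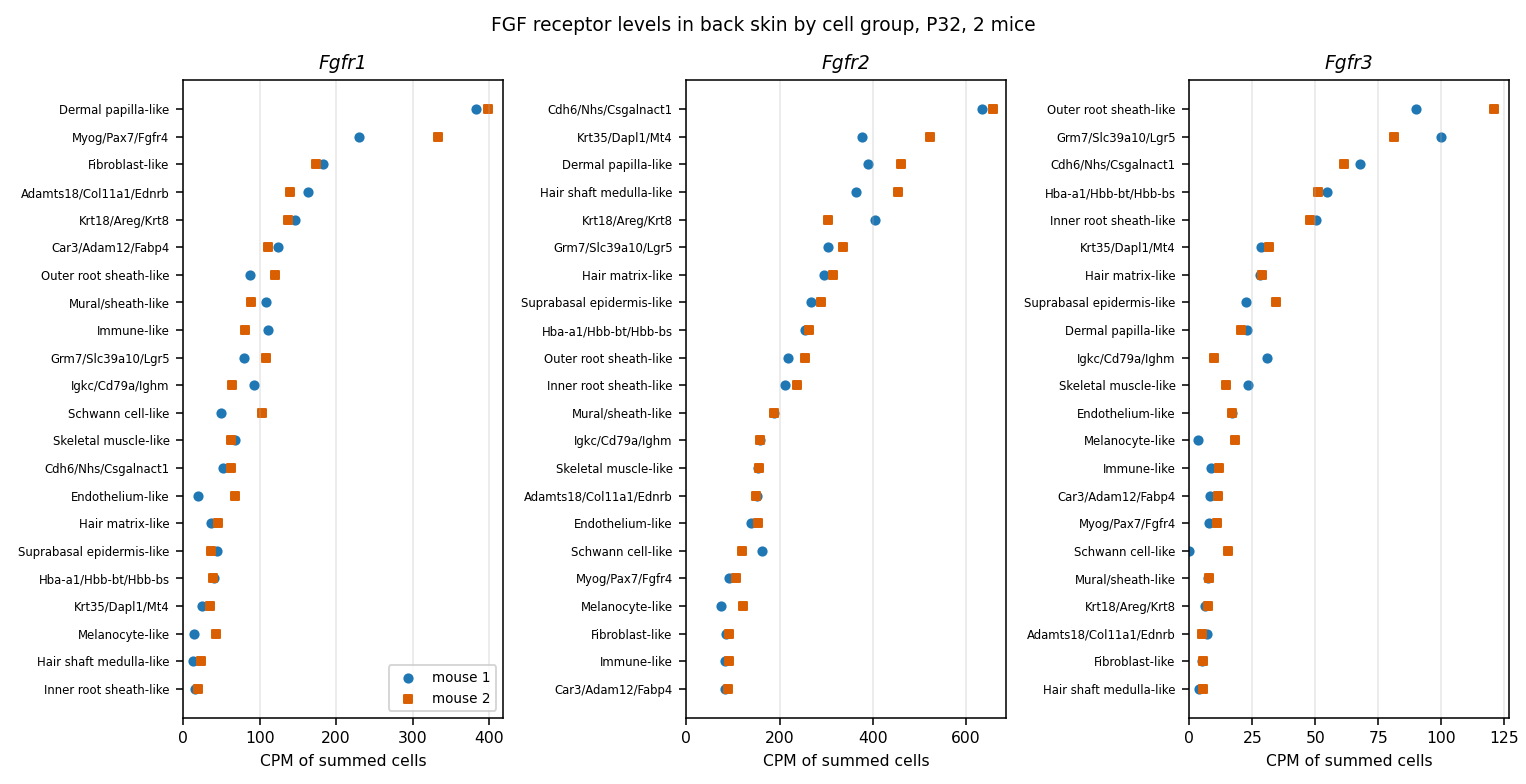
Levels of Fgfr1, Fgfr2 and Fgfr3 in the 22 cell groups of P32 back skin, as CPM of summed cells on a linear axis, with 1 point per mouse and groups ordered by their mean. Dermal papilla-like cells led Fgfr1 at 383 and 399 CPM, the Cdh6/Nhs/Csgalnact1 cluster led Fgfr2 at 635 and 657 CPM, and Outer root sheath-like cells had the highest mean of Fgfr3.

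Over the 13 named cell types, the genes most like each member except Fgf11 and Fgf22, which were too low, were found by Pearson's r of log2(CPM + 1), which is a description of points that share libraries. The unnamed clusters, among them the one with the highest Fgf5, had no part in these values. Fgf7 was most like Pappa2 (r = 0.981), Tmem132c (0.972) and Hhip (0.958), and Fgf10 like Frem1 (0.968), Cdh11 (0.961) and Rai2 (0.947). Fgf5 was most like Rerg (0.924), and Fgf18 like Scara3 (0.961). For the receptors, the nearest genes were Spon1 for Fgfr1 (0.914), Rpe for Fgfr2 (0.935) and Ethe1 for Fgfr3 (0.888).

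Other genes of the pathway had their own maxima in skin, and those named here were picked from the lists after their values were seen. Fgfr4 was highest in the Myog/Pax7 cluster, of which it is a leading gene, at 360 and 347 CPM against at most 8.37 CPM in the next group. Flrt2, a membrane protein that can bind FGF receptors, was highest in the Grm7/Slc39a10/Lgr5 cluster (1281 and 1599 CPM), and its relative Flrt3 in Outer root sheath-like cells (413 and 410 CPM). Gpc6, a heparan sulfate proteoglycan, was highest in Dermal papilla-like cells (1980 and 1752 CPM). Fgfbp1, which releases FGFs from the matrix, was highest in Suprabasal epidermis-like cells (289 and 425 CPM). The feedback inhibitor Spry4 had its highest mean in Dermal papilla-like cells (57.2 and 46.2 CPM), with Endothelium-like cells at 33.8 and 48.0 CPM, whereas Dusp6, a phosphatase of ERK, had like levels in the Grm7/Slc39a10/Lgr5 cluster (123 and 100 CPM) and Outer root sheath-like cells (104 and 100 CPM).

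In the RNA-seq cultures, 6 of the 9 members passed the filter on low counts among 15965 genes tested, namely Fgf7, Fgf11, Fgf18, Fgfr1, Fgfr2 and Fgfr3. Fgf5 had counts of 0 in 6 libraries and 1 and 2 in Rxra cKO atRA+PKCi. Fgf10 had at most 1 count in a library. Fgf22 had counts in a single group, 7 and 9 in Rxra cKO FBS and 0 in the other 6 libraries. With 3 counts over the group as the floor, Fgf22 in Rxra cKO FBS was at least 4.84-fold higher than in wild-type FBS, at least 5.70-fold higher than in wild-type atRA+PKCi and at least 5.91-fold higher than in Rxra cKO atRA+PKCi. Counts this low were not tested. The annotation gives 82 exonic bases of Fgf22 that overlap Rnf126 on the opposite strand, and whether counting used strand is not given in the sources used here.

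Per kb of exonic sequence, which allows levels of different genes to be compared, Fgfr2 was the highest member in each group, with group means of 2.77 to 6.85 CPM per kb. The exonic length of Fgfr2 includes the 314 bases shared with Ctbp2 on the same strand. Fgfr3 had 0.591 to 2.32 CPM per kb, and Fgf18 1.98 CPM per kb in wild-type FBS but 0.228 to 0.577 in the other groups. Fgfr1 was at 0.158 to 0.308 CPM per kb and Fgf11 at 0.161 to 0.388. In bulk samples, fewer cells of a type and less RNA per cell cannot be told apart.

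**Figure D3:**
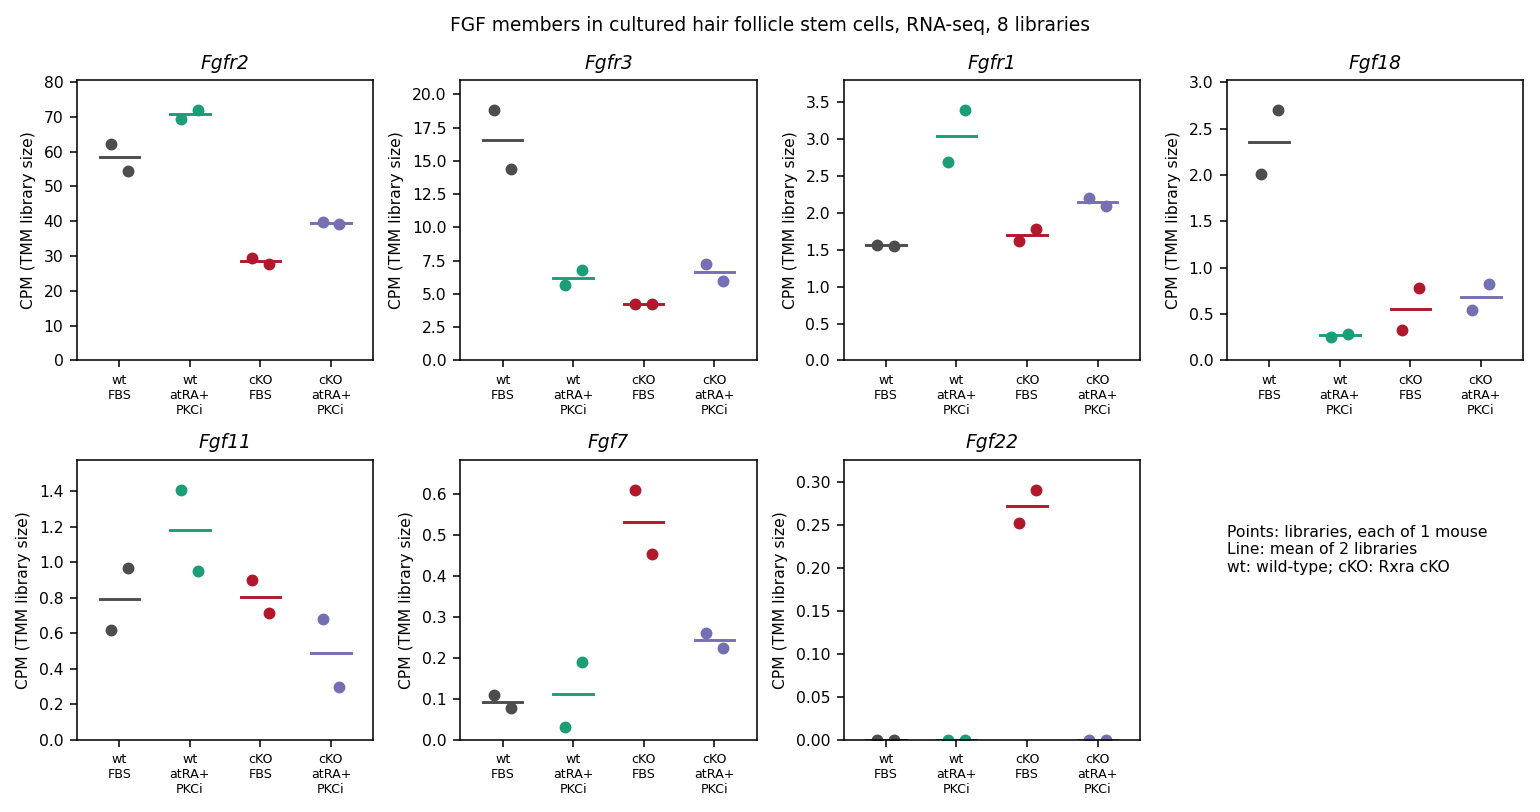
CPM of 7 members in the 8 RNA-seq libraries, with 1 point per library and a line at the mean of each group of 2 (wt, wild-type). Fgf18 and Fgfr3 were highest in wild-type FBS, Fgfr2 was higher in both wild-type groups than in both cKO groups, and Fgf22 had counts in Rxra cKO FBS and none in the other groups.

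The comparison of media in wild-type HFSCs asked what changed when serum was replaced by atRA+PKCi. Of the 6 members tested, 4 were called, 2 higher and 2 lower, against a background of 53.9% of all genes called. With so many genes called, this share says little about the members as a set. Their median log2 fold change was 0.26, against 0.03 over all genes tested. Fgf18 and Fgfr3 fell, and Fgfr1 and Fgfr2 were called higher. All 5 comparisons come from the same 8 libraries and share groups, so their values are given side by side and are not independent of each other.

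Fgf18 was at 2.01 and 2.70 CPM in wild-type FBS but at 0.257 and 0.285 CPM after wild-type cells were moved to atRA+PKCi, from 55 and 70 counts against 8 and 9. The groups did not overlap. The log2 fold change was -3.10 (SE 0.47, edgeR adjusted p = 0.000567). In Rxra cKO cultures the level was 0.324 and 0.777 CPM in FBS and 0.550 and 0.820 CPM in atRA+PKCi, which overlapped, and the log2 fold change was 0.28 (SE 0.46, adjusted p = 0.659). The change with medium thus differed between genotypes, by -3.38 on the log2 scale (SE 0.66, edgeR adjusted p = 0.00634), and 24.6% of all genes were called for this difference. In FBS, Fgf18 was lower in Rxra cKO than in wild-type (-2.07, SE 0.43, adjusted p = 0.00477), and the libraries of these groups did not overlap. In atRA+PKCi the difference of 1.31 had an adjusted p of 0.0623, although both cKO libraries lay above both wild-type libraries. That value was past the threshold when low counts were kept in (edgeR adjusted p = 0.0244) and with the 4 libraries compared alone. It was also past the threshold without either Rxra cKO FBS library.

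Fgfr3, a receptor of epithelial cells, followed a like pattern at a higher level. It was at 18.8 and 14.4 CPM in wild-type FBS, 5.68 and 6.78 with atRA+PKCi in wild-type, 4.24 and 4.21 in Rxra cKO FBS and 7.28 and 5.96 in Rxra cKO atRA+PKCi. Both wild-type FBS libraries stood above the other 6. The log2 fold change with medium was -1.41 in wild-type (SE 0.17, edgeR adjusted p = 0.000142) and 0.65 in Rxra cKO (SE 0.18, adjusted p = 0.0174), a difference of -2.07 (SE 0.25, adjusted p = 0.000528). The rise in Rxra cKO was not called without Rxra cKO FBS replicate 1 (adjusted p = 0.0604) or 2 (0.0826), or without Rxra cKO atRA+PKCi replicate 1 (0.112). Between genotypes, Fgfr3 was lower in Rxra cKO in FBS (-1.97, SE 0.18, adjusted p = 4.54e-05). In atRA+PKCi it differed by 0.09 (SE 0.17, adjusted p = 0.698), where the libraries overlapped. The summed outer root sheath markers were also highest in wild-type FBS (33100 to 34500 CPM), with 15300 to 15400 in the other wild-type group, 22400 to 24600 in Rxra cKO FBS and 25600 to 25700 in Rxra cKO atRA+PKCi. Krt14 and Krt5 dominated this sum, at 20500 to 22300 and 12000 to 12300 CPM in wild-type FBS. Sox9 and Barx2 were instead higher in wild-type atRA+PKCi (156 to 173 and 92.4 to 103 CPM) than in wild-type FBS (81.8 to 105 and 36.4 to 37.6 CPM). Krt17 was highest in Rxra cKO FBS, at 1730 to 1980 CPM. Fgfr3 was high in the outer root sheath of skin, and the part of these markers in its values was not tested. Of its exonic bases, 998 overlap G630022F23Rik on the opposite strand.

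Fgfr2, the main FGF receptor of keratinocytes, set the genotypes apart. It was at 62.2 and 54.5 CPM in wild-type FBS, 69.5 and 71.9 with atRA+PKCi in wild-type, 29.5 and 27.8 in Rxra cKO FBS and 39.9 and 39.1 in Rxra cKO atRA+PKCi. All 4 wild-type libraries lay above all 4 cKO libraries. The log2 fold change of cKO against wild-type was -1.03 in FBS (SE 0.081, edgeR adjusted p = 2.4e-05) and -0.84 in atRA+PKCi (SE 0.079, adjusted p = 5.13e-05). Medium moved it less, by 0.28 in wild-type (SE 0.078, adjusted p = 0.0157) and 0.46 in Rxra cKO (SE 0.081, adjusted p = 0.00195). These changes with medium were not shown to differ between genotypes (-0.19, SE 0.11, adjusted p = 0.274), and that difference was 0.22 when transcript length was also taken into account. The wild-type call was lost without wild-type FBS replicate 2 (0.18, adjusted p = 0.0687), without wild-type atRA+PKCi replicate 1 (adjusted p = 0.0568) or 2 (0.0934), and with DESeq2 (0.0614).

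Fgfr1 was low in the cultures. It had 1.57 and 1.55 CPM in wild-type FBS, 2.69 and 3.39 with atRA+PKCi in wild-type, 1.62 and 1.78 in Rxra cKO FBS and 2.20 and 2.09 in Rxra cKO atRA+PKCi. In both genotypes the atRA+PKCi libraries lay above the FBS libraries. The log2 fold change was 0.96 in wild-type (SE 0.22, edgeR adjusted p = 0.00608, but 0.0548 with DESeq2) and 0.33 in Rxra cKO (SE 0.22, adjusted p = 0.265), and the latter was -0.25 when transcript length was taken into account. Genotypes differed by 0.13 in FBS (adjusted p = 0.696) and -0.50 in atRA+PKCi (adjusted p = 0.0931).

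The values of Fgfr1 and Fgfr2 depended on which deposited table was read. The normalized table scales each count by library size and, from its values, also by the mean length of the transcripts that Salmon assigned to the gene in that library. Each length was scaled by library and divided by the gene's own geometric mean over the 8 libraries. For Fgfr1 this relative length was 0.752 and 0.924 in wild-type FBS but 1.59 and 1.27 with atRA+PKCi in wild-type. The range from the 5th to the 95th percentile of all genes was 0.874 to 1.11 and 0.899 to 1.13 in these groups. On the normalized scale Fgfr1 was 62.3 and 49.4 in wild-type FBS against 50.4 and 78.3 with atRA+PKCi, so the groups overlapped. With the lengths as offsets in edgeR, an alternative chosen after the data were seen, the change was 0.20 (adjusted p = 0.648). With the same offsets, the medium changes of Fgfr2 were 0.35 in wild-type (adjusted p = 0.14) and 0.13 in Rxra cKO (adjusted p = 0.616), whereas those of Fgf18 and Fgfr3 in wild-type were called on both scales. Limma on the normalized values gave the same verdicts on these 5 changes.

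**Figure D4:**
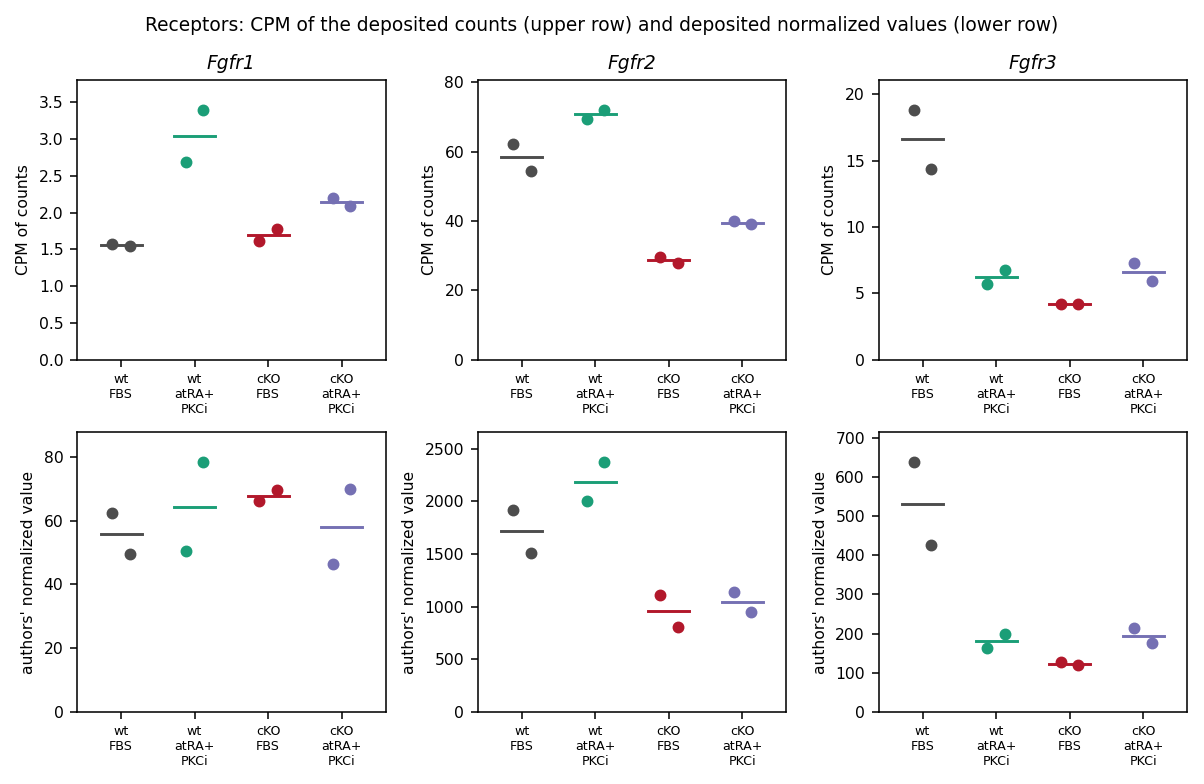
Fgfr1, Fgfr2 and Fgfr3 in the 8 RNA-seq libraries as CPM of the deposited counts in the upper row and as the deposited normalized values in the lower row, with 1 point per library and a line at the group mean. Fgfr3 kept its order of groups on both scales with wild-type FBS on top, whereas Fgfr1 separated the wild-type media on the CPM scale and overlapped between them on the normalized scale.

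Fgf7 had few counts, with 3 and 2 in wild-type FBS, 1 and 6 with atRA+PKCi in wild-type, 17 and 14 in Rxra cKO FBS and 10 and 6 in Rxra cKO atRA+PKCi. In CPM these were 0.109 and 0.0773, 0.0321 and 0.190, 0.611 and 0.453, and 0.262 and 0.224. The cKO libraries all lay above the wild-type libraries. The log2 fold change of cKO against wild-type in FBS was 2.45 (SE 0.73, edgeR adjusted p = 0.0245), and it was not called with DESeq2 (adjusted p = 0.133), with length offsets (0.118), or without any of the 4 FBS libraries (0.0677 to 0.125). In atRA+PKCi it was 1.11 (adjusted p = 0.262). Medium gave 0.24 in wild-type (adjusted p = 0.844; -0.31 with length offsets) and -1.10 in Rxra cKO (adjusted p = 0.178).

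Fgf11 had 8 to 44 counts per library, or 0.298 to 1.41 CPM, and its groups overlapped between media in wild-type but not in Rxra cKO, where the log2 fold change was -0.67 (SE 0.47, edgeR adjusted p = 0.284). The comparison nearest the threshold was -1.22 for cKO against wild-type in atRA+PKCi (SE 0.45, edgeR adjusted p = 0.058). That difference was past the threshold without Rxra cKO atRA+PKCi replicate 1 (-1.94, adjusted p = 0.0409) and when genes of low count were kept in (adjusted p = 0.0201).

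In the other comparisons, 2 of 6 members were called between media in Rxra cKO, both higher, against 43.0% of all genes, and the median log2 fold change was 0.31 against 0.02. Between genotypes, 4 members were called in FBS, 1 higher and 3 lower, against 42.8% of all genes (median -0.50 against 0.02). In atRA+PKCi 1 was called, lower, against 43.2% of all genes, 23.0% higher and 20.2% lower (median -0.21 against 0). For the difference between genotypes in the change with medium, 2 members were called against 24.6%, with a median of 0.22 against 0.01.

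Among 16 other FGF ligands, 4 passed the filter, and 1 rose and 1 fell with medium in wild-type, where 53.9% of all genes were called (median log2 fold change 0.79, against 0.03 over all genes). Fgf1, a ligand of all FGF receptors that lacks a signal peptide, rose from 1.82 to 42.9 CPM in wild-type (4.56, SE 0.11, edgeR adjusted p = 1.38e-08) and from 1.54 to 20.9 CPM in Rxra cKO (3.77, SE 0.11, adjusted p = 1.45e-07). These increases differed by 0.79 (adjusted p = 0.0092). The ligand that fell was Fgf21, which has a low count here (0.811 to 0.207 CPM, -1.95, adjusted p = 0.00742) and was named after its values were seen.

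Among 16 other receptors, coreceptors and FGF binding proteins, 13 were tested, of which 3 rose and 8 fell with medium in wild-type, where 27.2% of all genes were called higher and 26.6% lower (median -0.80 against 0.03). Fgfr4 had at most 2 counts in a library and was not tested. Flrt2 fell from 350 to 45.7 CPM in wild-type (-2.94, edgeR adjusted p = 3.79e-08) and from 196 to 133 CPM in Rxra cKO (-0.57, adjusted p = 0.000786). Flrt3 fell from 533 to 138 CPM (-1.95), the proteoglycan gene Sdc3 from 76.9 to 17.5 CPM (-2.14), Fgfbp1 from 530 to 184 CPM (-1.52) and Gpc1 from 169 to 74.1 CPM (-1.19) in wild-type, all with adjusted p of 1.82e-05 or less. Gpc4 rose from 15.0 to 31.1 CPM (1.06) and Fgfrl1, a receptor without a kinase domain, from 10.0 to 13.2 CPM (0.40, adjusted p = 0.0159). In Rxra cKO, 3 of the list rose and 5 fell, with 20.8% of all genes higher and 22.2% lower (median -0.05 against 0.02). For the difference between genotypes 6 were lower and none higher, with 13.3% of all genes lower and 11.3% higher. Against wild-type, cKO gave 4 higher and 6 lower in FBS (22.3% and 20.5% of all genes) and 8 higher and 2 lower in atRA+PKCi (23.0% and 20.2% of all genes).

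All 10 receptor adaptors were tested. With medium in wild-type, 2 rose and 3 fell (median 0 against 0.03), where 53.9% of all genes were called, and the called genes with at least 5 CPM were Gab1 (18.8 to 33.3 CPM, 0.82), Plcg1 (151 to 113 CPM, -0.42), Shc1 (80.1 to 60.6 CPM, -0.40) and Grb2 (92.2 to 73.9 CPM, -0.32). In Rxra cKO 2 rose and 1 fell (median 0.12 against 0.02), where 43.0% of all genes were called. Plcg1, a phospholipase bound by FGF receptors, was also lower in Rxra cKO than in wild-type in FBS (-1.02, edgeR adjusted p = 6.36e-05).

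All 17 feedback inhibitors and targets of FGF and ERK signalling were tested, and 3 rose and 9 fell with medium in wild-type (median -0.72 against 0.03), beside 27.2% of all genes higher and 26.6% lower. Dusp5, an ERK phosphatase of the nucleus, fell from 113 to 14.3 CPM (-2.97), the AP-1 gene Fosl1 from 90.9 to 17.2 CPM (-2.40), Dusp4 from 39.6 to 9.26 CPM (-2.10), Phlda1 from 236 to 57.2 CPM (-2.04) and the ETS factor Etv4 from 56.6 to 17.7 CPM (-1.68), all with edgeR adjusted p of 8.15e-06 or less. Il17rd, an inhibitor of FGF receptor signalling, rose from 1.87 to 5.66 CPM (1.59), the cyclin gene Ccnd1 from 246 to 464 CPM (0.91) and Egr1 from 211 to 272 CPM (0.37, adjusted p = 0.0358). In Rxra cKO 2 rose and 11 fell (median -0.93 against 0.02), beside 20.8% of all genes higher and 22.2% lower. There Dusp5 fell from 125 to 48.9 CPM (-1.36) and Etv4 from 44.8 to 5.26 CPM (-3.11). These genes answer to other ERK inputs as well, EGF among them.

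Markers of other cells were also read in the cultures. The sum of 5 adipocyte markers was 325 to 416 CPM in wild-type FBS, 14.4 to 14.8 with atRA+PKCi in wild-type, 159 to 192 in Rxra cKO FBS and 23.8 to 24.7 in Rxra cKO atRA+PKCi, and thus moved with medium. The sum of 7 dermal papilla markers was 168 to 173, 102 to 107, 162 to 166 and 96.3 to 99.4 CPM in the same order. Of these markers, Corin, Hhip and Alx4 were at 0 in wild-type FBS and Alx4 with atRA+PKCi in wild-type. In Rxra cKO, Hhip, Rspo3 and Alx4 were at 0 in FBS, and Corin, Hhip, Alx4 and Sox2 in atRA+PKCi. The sum of 8 fibroblast markers, in the same order, was 7.76 to 11.6, 1.35 to 4.37, 6.26 to 8.36 and 4.77 to 5.48 CPM, and the marker Lum was at 0 in all groups. The sum of 7 mural or dermal sheath markers was instead highest in Rxra cKO atRA+PKCi, at 35 to 58.5, 40.7 to 45.1, 32.1 to 40.5 and 70.3 to 71.9 CPM. Schwann cell sums were 29.7 to 37.8 CPM. Endothelium, immune, melanocyte and skeletal muscle sums did not exceed 9.22 CPM, a value of skeletal muscle in Rxra cKO atRA+PKCi. Fgf18 and Fgf7, which were mesenchymal in skin, were read beside these sums, whose part in their values was not tested.

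The multiplexed cultures held 449 and 208 barcodes, of which 222 and 78 passed the filters with a single tag, and no barcode occurred in both libraries. No such cell carried the FBS tag. The tag list names the conditions as FBS, B27, atRA+PKCi, Rspo (R-spondin, an enhancer of WNT signals), BMP, Rspo+BMP and Rspo+BMP+RARi (an inhibitor of retinoic acid receptors). Which BMP protein each tag stands for is not given in the sources used here. The paper describes the cultures with Rspo, BMP or RARi as also given atRA and PKCi. UMIs were summed per mouse and condition for the 5 conditions with at least 5 cells in both mice, and 1 of the 9 members, Fgfr2, passed the filter among 6265 genes.

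Fgfr2 was at 296 and 123 CPM in B-27, from 56 and 27 UMIs in 5 and 10 cells, with exact 95% counting intervals of 224 to 385 and 81.0 to 179 CPM. It was at 102 and 27.5 CPM in Rspo, 130 and 127 in BMP, 157 and 115 in Rspo+BMP and 343 and 221 in Rspo+BMP+RARi. Cells numbered 5 and 6, 113 and 13, 92 and 27, and 5 and 21 in these conditions. In atRA+PKCi alone, 2 and 1 cells gave 93.9 and 68.0 CPM, with no test. The RARi sums lay above both Rspo+BMP sums, and all other conditions overlapped with BMP or Rspo+BMP or rested on 14 or fewer UMIs.

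Calls in these cultures needed an adjusted p under 0.01 together with a log2 fold change beyond 1 in either direction. BMP against B-27 gave -0.55 for Fgfr2 (SE 0.52, edgeR adjusted p = 0.525, interval of 2 SE -1.59 to 0.49), where 5.71% of all genes were called. By the paper's account the BMP cultures also held atRA and PKCi, so BMP cannot be told apart from these compounds here. Rspo+BMP against BMP gave 0.06 (SE 0.50, adjusted p = 1, interval -0.94 to 1.05), and adding RARi gave 0.75 (SE 0.52, adjusted p = 0.959, interval -0.28 to 1.79). In both of these comparisons edgeR called 0% of all genes, with 44 and 232 genes at an unadjusted p under 0.05, and DESeq2 called 0 genes with 24 and 247. All 3 intervals span both directions.

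The other members had 7 or fewer UMIs in any sum of these cultures. Fgfr3 had 7 and 1 UMIs in BMP (1.89 and 1.96 CPM), 6 and 1 in Rspo+BMP and 0 and 3 in B-27 (0 and 13.7 CPM), and Fgfr1 had 3 and 0 UMIs in BMP and 2 and 0 in Rspo+BMP. Fgf5 and Fgf10 had 0 UMIs in every sum, which in the deepest sum allows up to 0.812 CPM (3 counts). Fgf7 had 2 and 5 UMIs in Rspo+BMP (0.768 and 7.03 CPM) and 3 and 0 in Rspo+BMP+RARi (31.2 and 0 CPM). Fgf22 had 4 UMIs, in BMP of mouse 1 (1.08 CPM), and Fgf18 had at most 2 in a sum. Intervals and floors cover counting error only. Of the pathway lists, 0 of 6 coreceptors and binding proteins and 0 of 8 adaptors were called in any of the 3 comparisons. In BMP against B-27, where 5.71% of all genes were called, 1 of 9 feedback genes was called lower. It was Dusp5 (-1.92, edgeR adjusted p = 0.00311).

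**Figure D5:**
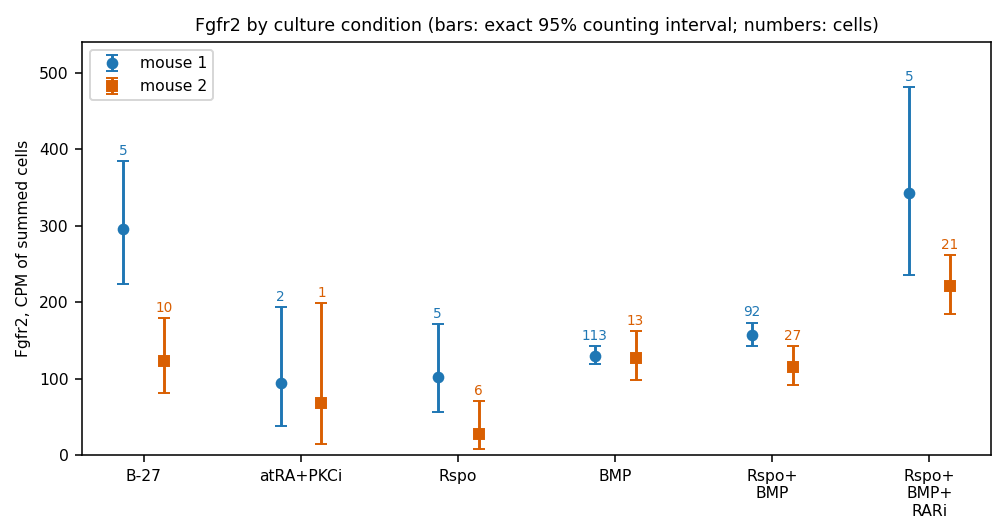
Fgfr2 in cultured wild-type HFSCs by condition, as CPM of summed cells, with 1 point per mouse, bars for the exact 95% counting interval and the number of cells above each bar. The Rspo+BMP+RARi sums were 343 and 221 CPM, and the BMP and Rspo+BMP sums lay between 115 and 157 CPM.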

How the data were processed

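Bulk RNA-seq of 8 libraries and 10x single-cell RNA-seq of 2 skin and 2 multiplexed culture libraries were analysed. The authors quantified bulk reads with Salmon (1.4.0 in the submitters' notes, mm10) and deposited estimated counts per gene, summed with tximport, which were rounded to whole numbers here. The authors also deposited normalized values per gene (a signal scaled by library and transcript length), used as an alternative. UMI counts per cell were deposited by the authors from Cell Ranger (7.0.1 in the notes). The filtered matrices were used without the authors' later ambient RNA removal.

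Bulk counts of all 15965 genes that passed filterByExpr were fitted in 1 model over 4 groups with edgeR 4.0.16 (TMM, R 4.3.3), with Benjamini-Hochberg adjustment and a threshold of 0.05. Skin cells had at least 500 genes and 1000 UMIs and under 10% mitochondrial UMIs, Scrublet doublets (5.76% and 2.21%) were left out, and Leiden clustering in scanpy 1.11.5 used resolution 1. A cluster was named from at least 3 detected markers. Median UMIs per cell were 8869 and 10594. Culture conditions were assigned to cells from the hashtag counts (HTODemux, Seurat 5.3.0), and sums per mouse and condition of at least 5 cells went into edgeR. Scripts were tested on simulated data. DESeq2 1.42.0 and limma 3.58.1 served as alternatives. Gene positions and exonic lengths came from GENCODE M21.

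All 9 members are named. In each pathway list the called genes with at least 5 CPM in a group mean are named, up to 5 at either end of the wild-type medium contrast, and for each member except Fgf11 and Fgf22 the 3 genes most like it over the named cell types of skin were sought. The members and lists were chosen with earlier results of these data known. Per the labels' source field, which names mouse 1 or mouse 2, same-numbered bulk libraries of a genotype came from the same mouse, and the correlation of their deviations was 0.0668 in wild-type and -0.0188 in Rxra cKO, so a fit with the mouse as a block was also run. Culture conditions share mice in the same way, with correlations of -0.292 to 0.25. P-values rest on 2 mice per genotype. ATAC-seq and Cut&Run samples were not used here.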

Additional observations from a re-analysis of the deposited data

Results flagged for a closer look

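The change with medium differed between genotypes for Fgf18 and Fgfr3 by a test of the difference itself, an interaction term in edgeR over all 15965 genes. For Fgf18 the wild-type change minus the Rxra cKO change was -3.38 on the log2 scale (adjusted p = 0.00634). Both wild-type atRA+PKCi libraries were lower than both wild-type FBS libraries, and the cKO libraries overlapped between media. For Fgfr3 the difference was -2.07 (adjusted p = 0.000528), with all libraries of the wild-type pair of groups moving down and those of the cKO pair up. Of all genes, 24.6% were called for this difference.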

How the results depend on the processing

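In RNA-seq, the wild-type medium calls of Fgf18 (-3.30 to -2.85) and Fgfr3 (-1.60 to -1.21), the FBS genotype calls of Fgf18 (-2.85 to -1.61), Fgfr2 (-1.12 to -0.84) and Fgfr3 (-2.16 to -1.76) and both differences between genotypes (Fgf18 -4.16 to -2.95, Fgfr3 -2.25 to -1.86) kept their side of the threshold under every alternative run. Members called in wild-type between media fell from 4 to 2 with DESeq2, with a stricter threshold (adjusted p under 0.01 and absolute log2 fold change over 1), with limma on the normalized values at pseudocounts of 1 and 0.5, and with length offsets in edgeR, an alternative chosen after seeing the data. In Rxra cKO they fell from 2 to 0 with the stricter threshold and to 1 with limma and with length offsets. Between genotypes in atRA+PKCi they went from 1 to 3 with no filter, to 0 with the stricter threshold and to 2 with the 4 libraries compared alone. Leaving out each library in turn gave 3 to 4 members in wild-type, 1 to 2 in Rxra cKO, 3 to 4 between genotypes in FBS, 1 to 2 in atRA+PKCi and 2 to 2 for the difference. Directions turned for uncalled values only. Fgf7 in wild-type became -0.55 and -0.64 with limma and -0.31 with length offsets, Fgfr1 in Rxra cKO -0.25 and the Fgfr2 difference between genotypes 0.22 with limma and length offsets. Leaving out libraries gave Fgf7 in wild-type -1.44 to 0.97, Fgf18 in Rxra cKO -0.17 to 1.05, Fgf11 between genotypes in FBS -0.26 to 0.37, Fgfr3 between genotypes in atRA+PKCi -0.04 to 0.23, Fgf7 for the difference -0.33 to 2.05, and Fgfr2 in cultures -0.94 to 0.11 (BMP against B-27) and -0.33 to 0.33 (Rspo+BMP against BMP). The cause was not tested.

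With the mouse as a replicate block, members called were 4 in wild-type, 2 in Rxra cKO, 2 for the difference and 0 in each culture comparison, and no member's call changed. Fgf18 in wild-type was then -3.09 and Fgfr3 -1.41. All genes called with the block numbered 8470, 6671 and 3615, against 8599, 6861 and 3924 without it. No paired analysis was possible for the genotype comparisons because wild-type and Rxra cKO libraries came from different mice. In skin, 231 of 315 levels moved by less than 1 SD and 84 by more under another filter, resolution or doublet setting, and 12 levels of at least 20 CPM moved by over 1.5 times. These are levels of the 13 named groups. The 9 unnamed clusters, among them those with the highest Fgf5 and Fgfr2, were not compared. With doublets kept, Cdh6, Nhs and Csgalnact1 were among the leading genes of a Hair matrix-like cluster. In the main clusters, the Cdh6/Nhs/Csgalnact1 cluster scored highest for the inner root sheath list (1.8) but stayed unnamed. At resolution 0.5 and with the stricter filter, Cdh6 was among the leading genes of an Inner root sheath-like cluster. The Inner root sheath-like mean of Fgfr2 was 341 CPM at resolution 0.5 in place of 225. Hair matrix-like cells were found in only 1 of the other settings. Fgf5, Fgf10 and Fgf22 had too few counts in the cultures to be tested.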
